A study of Rattus norvegicus with 10 samples.

Results

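The voltage-gated calcium channel alpha1 subunits were measured in rat liver after total-body irradiation (TBI) and after MASM, a derivative of the plant alkaloid matrine, given before TBI. The family was taken as 10 genes, from Cacna1a to Cacna1i together with Cacna1s, and the members were every array probe whose accession or gene name led to 1 of these symbols. That rule gave 12 probes of 7 genes among 41012 probes on the array, 16968 of which carried a symbol, while no probe of Cacna1a, Cacna1d or Cacna1h was matched. Cacna1e had 4 probes, Cacna1b and Cacna1c had 2 each, and Cacna1f, Cacna1g, Cacna1i and Cacna1s had 1 each. Cacna1e and Cacna1s had been picked out by the study, on these same arrays, as genes that were higher after TBI and not after MASM + TBI. Their values below are therefore a description with no test, and the tests concern the other 5 genes, the question being whether these shared the pattern of the 2 genes that were picked.

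All rats were male Wistar rats, and liver RNA was collected 24 h after the time of irradiation. The groups compared were 3 control rats with 0 Gy and no MASM, 3 TBI rats given 6.5 Gy from a cobalt source with no MASM, and 4 MASM + TBI rats given MASM into the stomach at 30 mg/kg a day for 3 days and then 6.5 Gy. MASM without irradiation was not on the arrays analysed here, so an effect of MASM alone could not be measured. The labels and the methods of the study differ on the dose, which is given here as in the labels. The array names printed under the clustering picture of the study place the arrays labelled control under TBI and those labelled TBI under control, and the groups here follow the labels, as does the direction in which the study picked Cacna1e and Cacna1s. On the arrays labelled control, the T lymphocyte gene Cd3g had log2 signals of 7.07, 7.31 and 7.09, on those labelled TBI 2.84, 4.14 and 3.68, and on those labelled MASM + TBI 4.40, 3.76, 3.09 and 2.93.

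Each rat had an array of its own, with 1 dye, and the values are log2 signals normalized between arrays by quantiles. A spot was called well above background, or detected, where the scanner software flagged it so. The TBI arrays differed from the others in this respect, with 64.1% to 70.1% of spots detected against 57.2% to 59.9% on control arrays and 56.2% to 60.2% on MASM + TBI arrays. The lowest processed signal, before normalization, was also lower on TBI arrays (1.65 to 2.06) than on control arrays (2.52 to 2.84) or MASM + TBI arrays (2.30 to 2.85). The 3 control arrays and the array of MASM + TBI rat 3 lay on 1 slide, the 3 TBI arrays on another, and MASM + TBI rats 1, 2 and 4 on yet another, so the TBI group and its slide cannot be told apart. Hepatocyte markers were as the label liver asks, since all 10 measured genes of that list, among them Alb and Ttr, were detected on every array.

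A voltage-gated calcium channel opens when the membrane is depolarised and lets calcium into the cell, and the alpha1 subunit forms its pore and senses the voltage. Cacna1s, Cacna1c, Cacna1d and Cacna1f encode L type channels, known respectively from skeletal muscle, heart and smooth muscle, endocrine and pacemaker cells, and the retina. Cacna1a, Cacna1b and Cacna1e encode the P/Q, N and R type channels of neurons and endocrine cells, and Cacna1g, Cacna1h and Cacna1i the T type channels that open at weak depolarisation. Hepatocytes are not electrically excitable, and their calcium signals are known to come mainly from internal stores through inositol trisphosphate receptors, with refilling through store-operated channels.

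The bases before the annotated starts of the 2 genes picked by the study are shown because these are the genes whose place in the family is in question. Sequence was held for 7 of the 10 members in the RefSeq promoter table (build GRCr8, on which chr13:69444811-69445060 on the minus strand is that of Cacna1e and chr13:50045418-50045667 on the plus strand that of Cacna1s). The 250 bases before each start are written 5′ to 3′ on the strand of the gene, with the letters TATAAA and CAGCTG in capitals wherever either was found on either strand.
Cacna1e: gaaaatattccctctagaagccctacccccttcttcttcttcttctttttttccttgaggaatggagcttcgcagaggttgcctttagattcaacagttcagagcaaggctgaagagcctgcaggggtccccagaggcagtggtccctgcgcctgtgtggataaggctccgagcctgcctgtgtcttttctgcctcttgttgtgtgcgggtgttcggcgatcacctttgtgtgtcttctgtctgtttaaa
Cacna1s: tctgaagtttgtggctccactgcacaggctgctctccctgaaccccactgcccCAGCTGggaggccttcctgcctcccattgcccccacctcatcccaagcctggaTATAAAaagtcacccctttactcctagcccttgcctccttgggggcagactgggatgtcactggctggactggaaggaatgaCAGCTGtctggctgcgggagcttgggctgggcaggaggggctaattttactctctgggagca
The window of Cacna1s held TATAAA at 144 bases and CAGCTG at 197 and 62 bases before the start, and that of Cacna1e held neither. Among 33469 promoters of the same length, 12.9% held TATAAA and 12.0% held CAGCTG, so that neither is rare. The consensus decamer of p53, the transcription factor activated by DNA damage, was found in 6.64% of these promoters and in none of the 7 members. CG dinucleotides numbered 1 in the window of Cacna1s, 3 in Cacna1c, 5 in Cacna1f, 6 in Cacna1e, 28 in Cacna1b, 34 in Cacna1a and 56 in Cacna1d, with a median of 5 over all promoters. A match of letters is a description of the window and not a bound site.

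Low signal was the rule in this family. Of the 12 probes, 1 was detected on all 10 arrays, 5 on some arrays and 6 on none. Counted by gene, 3 of the 7 (Cacna1e, Cacna1g and Cacna1s) were detected on every array of at least 1 group, and 5 of the 7 on at least 1 array, while Cacna1b and Cacna1f were detected on no array. Cacna1g and Cacna1s met the first rule through the TBI group alone, whose arrays had the largest shares of detected spots. Cacna1c and Cacna1i were detected in TBI rats only. In bulk liver RNA, fewer cells of a type and less RNA per cell cannot be told apart.

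**Figure D1:**
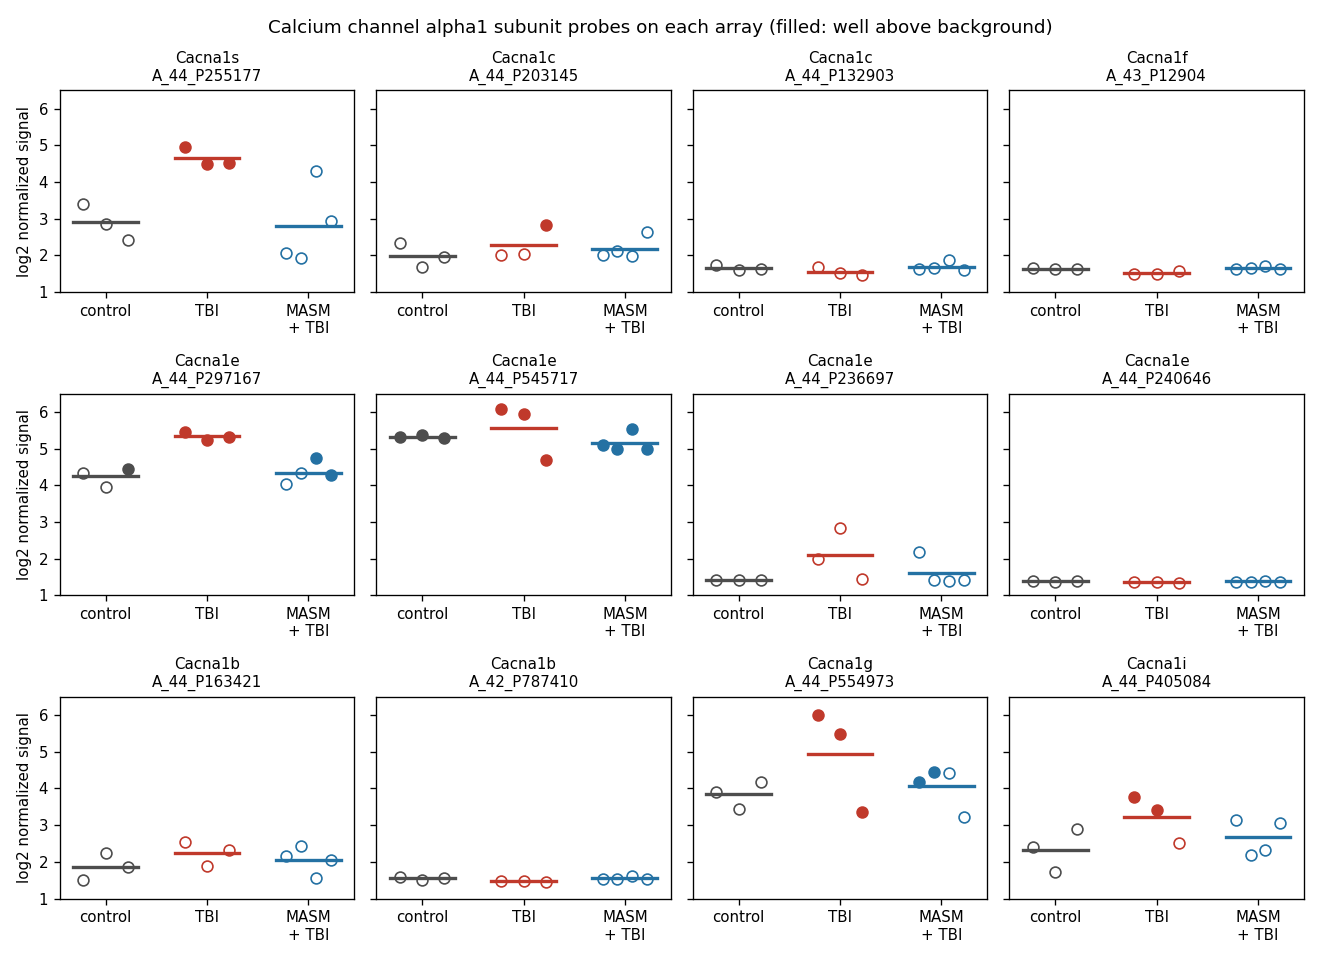
Log2 normalized signal (vertical axis) of the 12 alpha1 subunit probes on each of the 10 arrays by group (horizontal axis), in the order L type, R type, N type and T type. Each point is 1 rat in the order of its number, filled where the spot was well above background, and the line is the group mean. The 3 TBI points of Cacna1s A_44_P255177 and of Cacna1e A_44_P297167 lie above all other points of their panels, whereas TBI rat 3 falls within or below the controls for Cacna1g and for Cacna1e A_44_P545717.

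Among the L type channels, Cacna1s is the voltage sensor of skeletal muscle contraction. Its single probe had log2 signals of 3.41, 2.86 and 2.42 in control rats, 4.95, 4.50 and 4.53 in TBI rats, and 2.07, 1.92, 4.29 and 2.95 in MASM + TBI rats. The TBI rats stood above every other rat, the probe was detected in all 3 of them and in no control or MASM + TBI rat, and MASM + TBI rat 3 came close to the TBI values. The group means were 2.90 ± 0.50 (SD, n = 3), 4.66 ± 0.25 (SD, n = 3) and 2.81 ± 1.09 (SD, n = 4).

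The log2 difference was 1.76 for TBI against control, -0.09 for MASM + TBI against control and -1.85 for MASM + TBI against TBI. Because the control and MASM + TBI rats gave no detected signal, the fold change is only bounded, at least 1.71-fold higher in TBI than in control and at least 1.70-fold lower in MASM + TBI than in TBI. The bound sets the mean of the brighter group against the mean, over the dimmer group, of the lowest detected signal on each array or of the probe itself where that was higher. On the linear scale before normalization, the signal was 24.8 to 40.2 in TBI rats, above the lowest detected signal of any of the 10 arrays (8.29 to 14.4), and 4.90 to 8.08 in control rats.

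Leaving out 1 rat at a time moved the TBI difference of Cacna1s between 1.52 and 2.01. The difference of MASM + TBI against control was less settled, at 0.15 without MASM + TBI rat 1, 0.20 without rat 2, -0.59 without rat 3 and 0.16 without control rat 1. Rat 3, the only MASM + TBI rat on the slide of the controls, was 1.39 higher on the log2 scale than the control mean within that slide. The part of the slide in this value was not tested.

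Cacna1c, the L type channel of heart and smooth muscle, had 2 probes, both near the lower end of the signal range. Probe A_44_P203145 was detected only on the array of TBI rat 3, with log2 signals of 2.34, 1.69 and 1.97 in control rats, 2.01, 2.03 and 2.83 in TBI rats, and 2.00, 2.13, 1.99 and 2.63 in MASM + TBI rats. The groups overlapped in all 3 comparisons, and the TBI difference was 0.29 (95% interval -0.34 to 0.93, limma adjusted p = 0.557). Probe A_44_P132903 was detected on no array, lay between 1.46 and 1.88 throughout, and had a TBI difference of -0.10 (95% interval -0.33 to 0.13, limma adjusted p = 0.583).

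Cacna1f, the L type channel of photoreceptor terminals, was detected on no array. Its log2 signals were 1.66, 1.62 and 1.63 in control rats, 1.5, 1.5 and 1.57 in TBI rats, and 1.62, 1.65, 1.70 and 1.63 in MASM + TBI rats. The TBI rats lay below both other groups with no overlap, by 0.11 against control (limma adjusted p = 0.325), at signals of 2.15 to 2.75 before normalization. Groups without overlap are common among probes that no array detects, at 37.1% of them for TBI against control and 28.4% for MASM + TBI against TBI.

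Cacna1e, the R type channel, gave the only probe of the family that was detected on all arrays, and its 4 probes did not behave alike. Probe A_44_P297167, which is the probe the study followed, had log2 signals of 4.33, 3.96 and 4.45 in control rats, 5.45, 5.25 and 5.32 in TBI rats, and 4.04, 4.34, 4.74 and 4.27 in MASM + TBI rats. All TBI rats stood above all others, and the spot was detected in 1 control rat, 3 TBI rats and 2 MASM + TBI rats. Its mean was 4.25 ± 0.26 (SD, n = 3) in control, 5.34 ± 0.10 (SD, n = 3) in TBI and 4.35 ± 0.29 (SD, n = 4) in MASM + TBI. The TBI mean was 2.13-fold that of control (log2 difference 1.09), MASM + TBI differed from control by 0.10, and MASM + TBI was 1.99-fold lower than TBI (log2 difference -1.0). Leaving out 1 rat at a time kept the TBI difference between 0.95 and 1.20. Within the slide of the controls, MASM + TBI rat 3 was 0.49 above the control mean on the log2 scale.

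The Cacna1e probe detected on every array, A_44_P545717, did not show that separation. Its log2 signals were 5.31, 5.38 and 5.28 in control rats, 6.09, 5.93 and 4.68 in TBI rats, and 5.10, 5.0, 5.54 and 4.99 in MASM + TBI rats. TBI rats 1 and 2 were above every other rat and TBI rat 3 was below every other rat, so the group means differed by only 0.25 for TBI against control, -0.17 for MASM + TBI against control and -0.41 for MASM + TBI against TBI. Without TBI rat 3 the TBI difference was 0.69, without TBI rat 1 it was -0.01, and MASM + TBI against TBI ran from -0.86 to -0.15 without a rat. Within the slide of the controls, MASM + TBI rat 3 was 0.22 above the control mean, the opposite direction to the group difference.

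The array of TBI rat 3 had the largest share of detected spots (70.1%) and the highest 75th percentile of processed signal, 414 against 201 and 249 on the arrays of TBI rats 1 and 2. Before normalization, A_44_P545717 gave signals of 59.4, 65.2 and 44.7 in TBI rats 1 to 3, against 32.2 to 44.3 in control rats and 28.4 to 41.6 in MASM + TBI rats. On that scale all 3 TBI rats were above the 7 others, if only narrowly for rat 3.

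The remaining Cacna1e probes were detected on no array. A_44_P236697 stayed between 1.41 and 1.42 in control rats and reached 1.99 and 2.85 in TBI rats 1 and 2 and 2.19 in MASM + TBI rat 1, while A_44_P240646 stayed between 1.34 and 1.40 in all rats. Over the 10 arrays, which share 3 slides, the log2 signal of A_44_P297167 had a Pearson r of 0.43 with A_44_P545717, 0.39 with A_44_P236697 and -0.41 with A_44_P240646. Its r with the Cacna1s probe was 0.87, but both were picked for the same group pattern on these arrays, which largely fixes that value.

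Cacna1b, the N type channel of presynaptic terminals, was detected on no array by either of its probes. A_44_P163421 had log2 signals of 1.5, 2.24 and 1.86 in control rats, 2.54, 1.89 and 2.33 in TBI rats, and 2.15, 2.43, 1.55 and 2.04 in MASM + TBI rats. The groups overlapped, with a TBI difference of 0.39 (95% interval -0.24 to 1.01, limma adjusted p = 0.434). A_42_P787410 was between 1.45 and 1.61 on all arrays, with the TBI rats lowest by 0.08 (limma adjusted p = 0.481).

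Cacna1g and Cacna1i were the T type channels with a probe. Cacna1g had log2 signals of 3.91, 3.45 and 4.18 in control rats, 6.0, 5.48 and 3.37 in TBI rats, and 4.19, 4.46, 4.42 and 3.22 in MASM + TBI rats. TBI rats 1 and 2 stood above all others, whereas TBI rat 3 was below all 3 control rats. The probe was detected in 0 of 3 control rats, 3 of 3 TBI rats and 2 of 4 MASM + TBI rats.

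The mean log2 signal of Cacna1g was 3.85 ± 0.37 (SD, n = 3) in control, 4.95 ± 1.40 (SD, n = 3) in TBI and 4.07 ± 0.58 (SD, n = 4) in MASM + TBI. Its TBI difference of 1.10, against a control group not above background, had a 95% interval of -0.37 to 2.57 and did not pass the test (limma adjusted p = 0.342). The difference was 0.22 for MASM + TBI against control (95% interval -1.15 to 1.60) and -0.88 for MASM + TBI against TBI (95% interval -2.25 to 0.50). Against the lowest detected signal of the control arrays, the TBI mean was at least 1.98-fold higher.

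The Cacna1g result turned on TBI rat 3. Without that rat the TBI difference was 1.90 (limma adjusted p = 0.0387), which passed the threshold, and without TBI rat 1 it was 0.58 (limma adjusted p = 0.620). The difference of MASM + TBI against TBI was -1.67 without TBI rat 3 (limma adjusted p = 0.0745) and -0.35 without TBI rat 1 (limma adjusted p = 0.803). Before normalization the signal of Cacna1g was 56.2, 48.3 and 18.3 in TBI rats 1 to 3, 11.4 to 17.2 in control rats and 8.37 to 20.3 in MASM + TBI rats, so that TBI rat 3 lay within the range of the MASM + TBI rats.

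Cacna1i was detected in TBI rats 1 and 2 alone. Its log2 signals were 2.40, 1.72 and 2.89 in control rats, 3.76, 3.42 and 2.51 in TBI rats, and 3.14, 2.19, 2.33 and 3.05 in MASM + TBI rats. TBI rats 1 and 2 were again the highest and rat 3 fell among the controls. The TBI difference was 0.90 (95% interval -0.07 to 1.87, limma adjusted p = 0.246), MASM + TBI against control gave 0.35 (95% interval -0.56 to 1.25), and MASM + TBI against TBI gave -0.55 (95% interval -1.46 to 0.36). Leaving out 1 rat at a time moved these values of Cacna1i between 0.59 and 1.26, 0.04 and 0.62, and -0.91 and -0.29, with the lowest TBI value without control rat 2 and the highest without TBI rat 3, and within the slide of the controls MASM + TBI rat 3 lay at the control mean (difference -0.00052).

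Taking the 5 genes that the study did not pick, 0 of 7 probes passed an adjusted p of 0.05 in limma with a fold change of 1.5 in any of the 3 comparisons, and 0 of 7 passed an unadjusted limma p of 0.05 with the same fold change. By the methods' t-test, the test behind the threshold of the study, 0 of 7 passed unadjusted as well and 2905, 2357 and 1666 probes of the whole array were called in the 3 comparisons. Over all 40945 probes with a value on every array, the adjusted rule called 4.50% for TBI against control, 2.35% for MASM + TBI against control and 1.39% for MASM + TBI against TBI. At the unadjusted threshold these shares were 12.6%, 8.06% and 7.98%. By direction, the adjusted rule called 2.01% higher and 2.49% lower for TBI against control, 0.926% and 1.43% for MASM + TBI against control, and 0.767% and 0.625% for MASM + TBI against TBI. The unadjusted rule called 6.53% higher and 6.09% lower, 3.52% and 4.55%, and 3.15% and 4.83% in the same order. With 7 probes a count of 0 is not far from these shares and does not set the 5 genes apart from the rest of the array.

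In direction, 4 of the 7 probes were higher and 3 lower in TBI than in control, with a median log2 difference of 0.29 and a range of -0.11 to 1.10. MASM + TBI against TBI had 3 higher and 4 lower, with a median of -0.10. In MASM + TBI against control all 7 were higher, by 0.00 to 0.35, of which 3 turned lower under scaling to the 75th percentile and 4 under normexp background correction. With 1 probe per gene, that with the highest mean signal, the median of these 5 genes was 0.39 for TBI against control, 0.19 for MASM + TBI against control and -0.21 for MASM + TBI against TBI. With the picked genes included, the median of the 7 genes was 0.39, 0.18 and -0.41. The medians over all probes were -0.03, 0.00 and 0.04, and over the probes detected on some of the arrays 0.17, 0.04 and -0.10.

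Over the whole array, groups did not overlap, in either direction, for 30.3% of probes in TBI against control, 18.3% in MASM + TBI against control and 18.5% in MASM + TBI against TBI. Of the 7 probes of the genes not picked, this held for 2, 0 and 2, and in both cases the probes were Cacna1f and Cacna1b A_42_P787410. Detection in every TBI rat and in no other, the pattern of the Cacna1s probe, was shown by 617 probes (1.5% of all), against 28 probes for the control group and 1 probe for the MASM + TBI group.

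The array as a whole was most often higher after TBI among probes of intermediate detection, a class that held 5 of the 12 alpha1 probes. That class is set in part by the differences themselves, since a probe that rises past the background in 1 group enters it, so the shares describe where the members lie and are no independent background for them. Of the 9379 probes detected on some arrays but not all, 15.0% were higher and 8.24% lower in TBI than in control at the unadjusted threshold. Of the 21341 probes detected on every array, 4.83% were higher and 6.0% lower, and of the 10225 detected on none, 2.33% were higher and 4.31% lower. Both picked probes belonged to this class, as did those of Cacna1g and Cacna1i and 1 probe of Cacna1c.

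**Figure D2:**
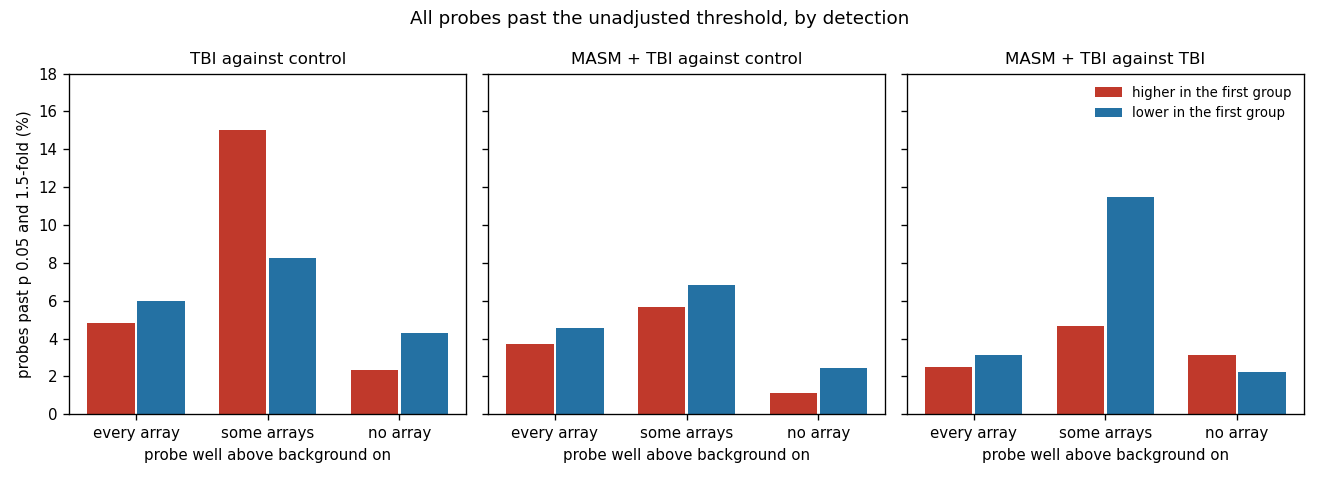
Share of all probes (vertical axis, %) past an unadjusted p of 0.05 with a fold change of 1.5, higher or lower in the first group named, by the number of arrays on which the probe was well above background (horizontal axis), for the 3 comparisons. The highest bar, 15.0%, is that of probes detected on some arrays and higher in TBI than in control.

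The size of these differences depended on the processing of the signal. With a normexp correction of the median pixel signals and an offset of 50, which by its construction shrinks differences between signals below that offset, the TBI difference was 0.24 for the picked Cacna1e probe, 0.21 for Cacna1s and 0.22 for Cacna1g. Scaling each array to its 75th percentile gave 1.16, 1.89 and 1.19. Under that scaling Cacna1b A_42_P787410 and Cacna1f, neither of them detected on any array, were called lower in TBI than in control, by 0.80 in both cases on the log2 scale (limma adjusted p = 0.0361 and 0.0330). Their signals before normalization, 2.13 to 2.75 in TBI rats and 3.05 to 3.48 in control rats, were close to the lowest signal of each array.

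**Figure D3:**
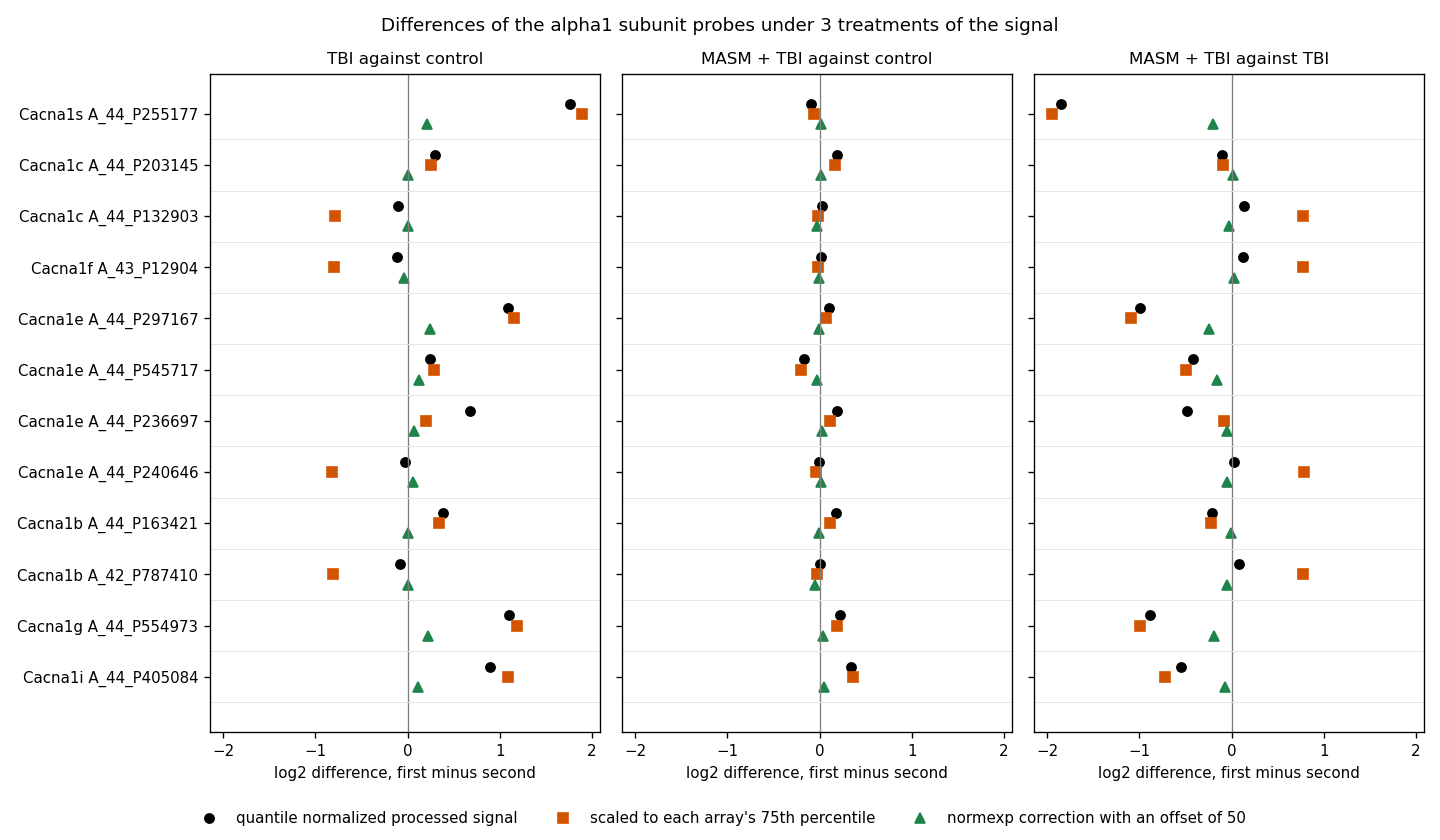
Log2 difference between group means (horizontal axis, first group minus second) of the 12 alpha1 subunit probes (vertical axis) in the 3 comparisons, under quantile normalization, scaling to the 75th percentile and normexp correction. For TBI against control the normexp values of all probes lie between -0.04 and 0.24, and A_42_P787410, A_44_P132903, A_44_P240646 and A_43_P12904 reach -0.79 to -0.82 under scaling to the 75th percentile alone.

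The channels are completed by auxiliary subunits, which set how many pores reach the membrane and how fast they close. Of 16 such genes, 15 were measured, 4 were detected on all arrays and 10 on any array. In limma, 0 were called higher and 1 lower for TBI against control, 0 higher and 1 lower for MASM + TBI against control, and 0 in either direction for MASM + TBI against TBI, where 1 was lower at the unadjusted threshold. The median log2 difference of the list was 0.30, -0.01 and -0.12 in the 3 comparisons. Cacnb3, the beta subunit common in smooth muscle and neurons, had log2 signals of 7.39, 7.18 and 7.61 in control rats, 6.78, 6.58 and 6.85 in TBI rats, and 6.51, 6.59, 6.60 and 6.59 in MASM + TBI rats. Both irradiated groups were below the controls with no overlap. Cacnb3 fell by 0.66 on the log2 scale after TBI (SE 0.12, limma adjusted p = 0.0203) and by 0.82 after MASM + TBI (SE 0.11, limma adjusted p = 0.0086). The count of the list for TBI against control fell to 0 without control rat 1, without control rat 3 or without TBI rat 2, and also under normexp, with 2 groups in the model and with the methods' t-test. That for MASM + TBI against control fell to 0 with a replicate block, under normexp and with the methods' t-test, so Cacnb3 was not called in any of these. Nor was Cacnb3 called with the slide as a fixed block, where the comparison rests on MASM + TBI rat 3 alone.

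Release of calcium from stores, their refilling and the pumps that clear calcium were measured well above background, in contrast to the alpha1 subunits. Of 20 genes, 18 were measured and 17 were detected on all arrays. In limma 1 was called higher and 1 lower for TBI against control, 1 higher and 1 lower for MASM + TBI against control, and 0 for MASM + TBI against TBI, where 0 were higher and 2 lower at the unadjusted threshold. The median log2 difference was 0.07, 0.06 and 0.02.

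Atp2b2, a pump that moves calcium out across the plasma membrane, rose after TBI. Probe A_44_P139697 had log2 signals of 6.47, 5.88 and 6.02 in control rats, 7.72, 7.71 and 7.93 in TBI rats, and 7.62, 7.55, 6.79 and 7.73 in MASM + TBI rats. Every irradiated rat was above every control rat, and rat 3, on the slide of the controls, was the lowest of the MASM + TBI rats. It rose 3.17-fold after TBI (log2 difference 1.66, SE 0.25, limma adjusted p = 0.0105) and 2.46-fold after MASM + TBI (log2 difference 1.30, SE 0.24, limma adjusted p = 0.0283). Its other probe, A_44_P535337, rose 2.22-fold after TBI (limma adjusted p = 0.0411) and had a difference of 0.80 after MASM + TBI (limma adjusted p = 0.132), with rat 3 at 7.20 beside control rats at 7.20, 7.25 and 6.67.

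Itpr3, an inositol trisphosphate receptor that releases calcium from the endoplasmic reticulum, fell after TBI on probe A_44_P288187. Its log2 signals were 5.89, 5.94 and 5.47 in control rats, 5.08, 4.95 and 4.95 in TBI rats, and 5.60, 5.61, 5.49 and 5.38 in MASM + TBI rats. The TBI rats were below all others, by 0.78 against control (limma adjusted p = 0.0166), and MASM + TBI exceeded TBI by 0.53 (limma adjusted p = 0.0886). A second Itpr3 probe, A_44_P288185, had a difference of -0.27 for TBI against control (limma adjusted p = 0.833).

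Atp2a3, a pump that returns calcium to the endoplasmic reticulum, fell after MASM + TBI by 0.76 on the log2 scale on probe A_42_P522194 (limma adjusted p = 0.0200). Its TBI difference was -0.48 (limma adjusted p = 0.0776), and MASM + TBI differed from TBI by -0.27 (limma adjusted p = 0.317). The count of 2 genes of this list called for MASM + TBI against control fell to 0 without control rat 2, control rat 3, MASM + TBI rat 2 or MASM + TBI rat 4, with a replicate block and with the methods' t-test. The count of 2 for TBI against control fell to 0 with the methods' t-test. It fell to 1 without control rat 1 or control rat 2, under normexp and with 2 groups in the model.

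Voltage-gated sodium channels are a family of similar build and tissue range. All 9 alpha subunit genes of the list were measured, 0 were detected on every array and 4 on any array. In limma 0 were called in any of the 3 comparisons, and at the unadjusted threshold 1 was higher and 1 lower for TBI against control, 1 was higher for MASM + TBI against control and 1 was higher for MASM + TBI against TBI. Their median log2 difference was -0.03, 0.00 and 0.03. Scn11a, which was singled out after its values were seen, had log2 signals of 1.39, 1.36 and 1.38 in control rats and 1.83, 1.82 and 1.90 in TBI rats and was detected on no array.

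**Figure D4:**
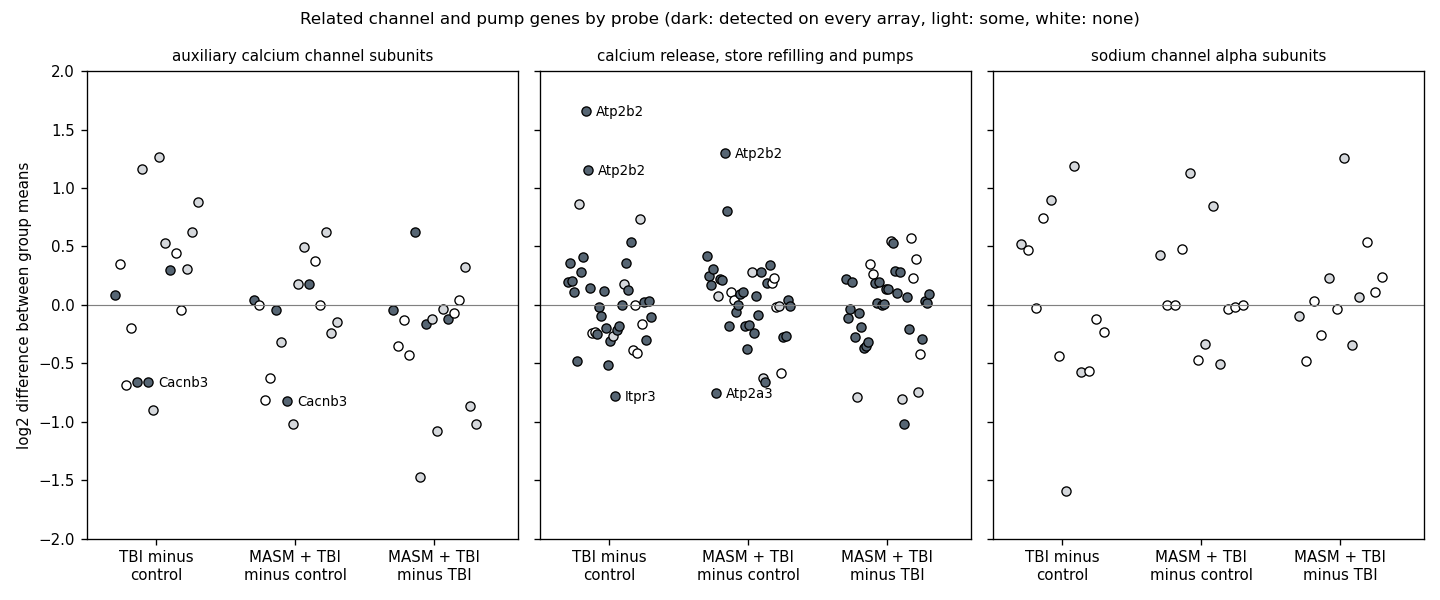
Log2 difference between group means (vertical axis) of each probe of the auxiliary subunits, of calcium release, refilling and pump genes, and of sodium channel alpha subunits, in the 3 comparisons (horizontal axis). Symbols name the probes with an adjusted p under 0.05 and a fold change of 1.5. The Atp2b2 probes lie at 1.66 and 1.15 for TBI against control, and no probe is named for MASM + TBI against TBI.

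Among the cells known to use these channels, markers of skeletal muscle and neurons were mostly not detected in the same RNA, whereas those of smooth muscle were. Of 7 measured smooth muscle markers, 6 were detected on every array, Cnn1 was detected on none, and the summed linear signal was 2698 to 3841 in control rats, 1933 to 2996 in TBI rats and 2787 to 3165 in MASM + TBI rats. Of 9 measured skeletal muscle markers, 1 or 2 were detected on each array, and the defining genes Acta1, Ckm, Myh1, Myh2 and Myh4 were detected on none. The summed linear signal of the skeletal muscle markers was 208 to 303 in control rats, 159 to 270 in TBI rats and 216 to 272 in MASM + TBI rats, and 0 of them were called in any comparison. For TBI against control their median log2 difference was -0.54, with 0 higher and 2 lower at the unadjusted threshold. The median was 0.02 for MASM + TBI against control and 0.23 for MASM + TBI against TBI. Of 8 measured neuron markers, 1 was detected in each control rat, 2 or 3 in TBI rats and 1 or 2 in MASM + TBI rats, while Snap25, Syt1, Gap43 and Stmn2 were detected on no array.

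The summed signal of the neuron markers was 56.8 to 66.8 in control rats, 81.1 to 126 in TBI rats and 52.0 to 150 in MASM + TBI rats. In limma 3 were called higher for TBI against control, where 2.01% of all probes were, and 1 lower for MASM + TBI against TBI, where 0.625% were. At the unadjusted threshold 3 were higher and 1 lower for TBI against control. Tubb3, the neuronal tubulin and the neuron marker detected on all arrays, rose 2.29-fold after TBI (log2 difference 1.19, limma adjusted p = 0.0062) and was 1.89-fold lower in MASM + TBI than in TBI (limma adjusted p = 0.0247). The other 2 called markers, Gap43 and Snap25, were below background. All 7 measured markers of Kupffer cells, the macrophages of the liver, were detected on every array, and their summed signal was 59629 to 88813 in control rats, 60729 to 112512 in TBI rats and 47280 to 59993 in MASM + TBI rats, with every MASM + TBI rat below every TBI rat. That gap was narrow (59993 against 60729), and groups did not overlap for 18.5% of all probes in this comparison. In limma 0 of the Kupffer markers were called, but for MASM + TBI against TBI their median log2 difference was -0.77 and 4 of 7 were lower at the unadjusted threshold. At that threshold 4.83% of all probes were lower, and 3.12% of those detected on every array. All 6 measured endothelial markers were detected on every array as well, with summed signals of 13462 to 16185 in control rats, 17291 to 21356 in TBI rats and 15232 to 19041 in MASM + TBI rats, so that every TBI rat was above every control rat. Their median log2 difference for TBI against control was only 0.02, with 0 higher and 1 lower at the unadjusted threshold. In that comparison groups did not overlap for 30.3% of all probes. Whether any of these cells had a part in the levels of the alpha1 subunits was not tested.

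The genes most like the picked probes over the 10 arrays were sought among symbol-bearing probes of other genes detected on every array of at least 1 group. For Cacna1e A_44_P297167 they were Kctd10 (Pearson r 0.98), Or5aq1d (0.98), Myoz1 (0.97), Myt1 (0.97) and Or51a25 (0.97), and 47 of 12281 candidates had r over 0.9. For Cacna1s they were Or4a69 (Pearson r 0.95), Or6k8 (0.94), Rrad (0.94), Pde1b (0.93) and Cldn16 (0.92), and 11 of 12282 had r over 0.9. Symbols beginning with Or are olfactory receptor genes. A candidate could pass the rule of detection through the TBI group alone. The arrays compared share slides, and these values describe a likeness of pattern alone.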

How the data were processed

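Liver RNA of 10 rats had been amplified, labelled with Cy3 and hybridised to 1 array each (Agilent, 45018 spots, 1639 of them control spots). For each spot the authors deposited a linear intensity from Feature Extraction 10.7.3.1 per the file headers, from which background had been subtracted but which had not been normalized between arrays. The deposited series table repeats these intensities, with a largest difference of 0.

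Control spots and spots marked as outliers (76 to 112 per array) were left out, 0 spots were saturated, and the log2 signals were quantile normalized, the method named by the authors, and probes with over 1 spot (263 of them) were averaged. Of 41012 probes, 40945 had a value on every array. A probe counted as detected where the flag for a signal well above background held on at least 50% of its spots. Probes were named through their accession or gene name by RefSeq, by which 13438 genes had a probe. The probe design and the sequence table rest on different assemblies, so no probe positions are given.

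A linear model with 3 group means was fitted to all 10 arrays with limma 3.58.1 in R 4.3.3 (prior degrees of freedom 1.43), with the data.table package 1.17.8, and p-values were adjusted by Benjamini-Hochberg over all probes. Plots used matplotlib 3.10.9 in Python 3.11.15. The rule for a call was an adjusted p under 0.05 together with a 1.5-fold change in either direction, and the same fold change at an unadjusted p of 0.05 is given beside it. The model was tested on simulated data. Levels are not compared between genes, probes of 1 gene are ranked by mean signal only to choose 1 for the medians, and the number of arrays limits the precision. No label says more of the replicates than that they are separate samples of a group. The p-values therefore measure the spread between these samples.

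The members and gene lists were chosen with earlier results of these data known. Every member probe is accounted for. Genes of the auxiliary, calcium release and sodium channel lists were named where called in any comparison (at most 8 a list), and the 5 probes most alike to each picked probe by Pearson r. Markers of smooth muscle, stellate, endothelial and Kupffer cells were counted beside those of hepatocytes, neurons, skeletal muscle and lymphocytes. For TBI against control 1 of 8 stellate markers (Lrat) and 4 of 8 lymphocyte markers were called lower, and 0 of the smooth muscle, endothelial and Kupffer markers were called in this or the other comparisons.

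Alternatives were scaling to the 75th percentile, normexp with an offset of 50 on median pixel signals (the mean signals it was meant for were not used here), a filter on dim probes, 2 groups in the model, the methods' t-test (Welch), a trended and robust prior, a replicate block, the slide as a random block, the deposited table and leaving out each rat. The slide as a fixed block was added after seeing the data.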

Additional observations from a re-analysis of the deposited data

Results flagged for a closer look

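In the MASM + TBI group, Cacna1e probe A_44_P236697 had a log2 signal of 2.19 in rat 1 and 1.42, 1.40 and 1.41 in rats 2 to 4, so that rat 1 stood apart from its group by Dixon's test (gap over range 0.973). No array had this probe well above background, and the signal before normalization was 4.46 in rat 1 and 2.55 to 3.14 in the others. Among the groups examined this way, 1 in 20 would stand apart by chance.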

How the results depend on the processing

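The counts of called probes over the 5 genes not picked by the study were 0 in each comparison by the adjusted rule, and stayed 0 under every alternative that was run except those named here. Scaling to the 75th percentile called 2 member probes for TBI against control and 2 for MASM + TBI against TBI (Cacna1b A_42_P787410 and Cacna1f in both), and leaving out a rat gave 0 to 1 for TBI against control (Cacna1g without TBI rat 3). By the unadjusted rule the count of 0 became 4 under the 75th percentile, 1 with the random slide block, 1 without control rat 3 and 2 without TBI rat 3 for TBI against control, 3 under the 75th percentile and 1 without TBI rat 3 for MASM + TBI against TBI, and stayed 0 under the alternatives for MASM + TBI against control. The genes counted as well above background were 3, of which Cacna1g and Cacna1s passed through the TBI group alone, or 5 where 1 array was enough. The median over members kept its sign with a mean over all probes of a gene.

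Several differences changed sign, most of them close to 0, with Cacna1s in MASM + TBI against control an exception. In TBI against control, Cacna1c A_44_P132903 gave 0.0071 with normexp. In MASM + TBI against control, scaling to the 75th percentile gave -0.029 for Cacna1b A_42_P787410, -0.014 for Cacna1c A_44_P132903 and -0.018 for Cacna1f, and normexp gave -0.048, -0.025 and -0.012 for the same probes and -0.0084 for Cacna1b A_44_P163421. The slide as a random block gave -0.013 for Cacna1b A_42_P787410 and -0.011 for Cacna1c A_44_P132903. The slide as a fixed block was chosen after seeing the data and sets only MASM + TBI rat 3 against the controls. That setting gave -0.32 for Cacna1b A_44_P163421, -0.0038 for Cacna1c A_44_P203145 and -0.00052 for Cacna1i, against 0.18, 0.19 and 0.35 without that block. It turned Cacna1s from -0.09 to 1.39 and Cacna1e A_44_P545717 from -0.17 to 0.22. It also turned Cacna1e A_44_P236697 from 0.19 to -0.02 and A_44_P240646 from -0.0042 to 0.022. Cacna1s gave 0.19 with the methods' t-test, which sets linear means against each other, and 0.014 with normexp. Without a rat, the same comparison gave -0.021 to 0.021 for Cacna1b A_42_P787410, -0.0057 to 0.36 for Cacna1b A_44_P163421, -0.034 to 0.067 for Cacna1c A_44_P132903 and -0.0045 to 0.027 for Cacna1f. For the picked probes it gave -0.59 to 0.20 for Cacna1s and -0.05 to 0.20 for Cacna1e A_44_P297167. MASM + TBI against TBI under normexp gave -0.047 for Cacna1b A_42_P787410, -0.032 for Cacna1c A_44_P132903 and 0.010 for Cacna1c A_44_P203145, which ran from -0.25 to 0.17 without a rat, the highest being without TBI rat 3. The causes were not tested.

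The auxiliary list, with 1 gene called for TBI against control, had 2 under the 75th percentile and 0 under normexp, with 2 groups in the model and with the methods' t-test, and 0 to 2 without a rat. Its 1 gene for MASM + TBI against control became 0 under normexp, the methods' t-test, the replicate block and the fixed slide block, and for MASM + TBI against TBI it was 1 without TBI rat 3. The release and pump list, with 2 genes for TBI against control, had 5 under the 75th percentile, 1 under normexp and with 2 groups, 0 with the methods' t-test and 1 to 3 without a rat (1 without control rat 1 or 2). Its 2 genes for MASM + TBI against control became 1 under normexp, with 2 groups and with the fixed slide block, 0 with the methods' t-test and the replicate block, and 0 to 2 without a rat. Its count of 0 for MASM + TBI against TBI became 4 under the 75th percentile, 1 with the random slide block and 1 without TBI rat 1. The sodium channel count of 0 became 3 under the 75th percentile, 1 with 2 groups, 2 with the random slide block and 1 without control rat 2 or MASM + TBI rat 3 for TBI against control. It became 1 with the random and with the fixed slide block and 1 without MASM + TBI rat 3 for MASM + TBI against control, and 3 under the 75th percentile for MASM + TBI against TBI.

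Of all probes, the share called for TBI against control (4.50%) was 17% under the 75th percentile, 1.46% under normexp, 7.64% with the filter on dim probes, 2.30% with 2 groups, 0.0244% with the methods' t-test, 2.51% with the replicate block, 9.96% with the random slide block and 2.23% to 5.65% without a rat. The share for MASM + TBI against control (2.35%) was 1.19% under normexp, 4.83% with the filter, 0.0684% with the methods' t-test, 0.728% with the replicate block, 4.41% with the random and 1.28% with the fixed slide block, and 1.13% to 2.55% without a rat. That for MASM + TBI against TBI (1.39%) was 12.5% under the 75th percentile, 0.232% under normexp, 0.623% with 2 groups, 0.00733% with the methods' t-test, 0.0537% with the replicate block, 3.42% with the random slide block and 0.586% to 2.65% without a rat. Fewer probes entered under the filter (25275). The methods' t-test without adjustment called 2905, 2357 and 1666 probes in the 3 comparisons. Replicate numbers did not pair the rats, since deviations of rats with the same number correlated at -0.13 to 0.17, and the replicate block called 0 member probes. Signals near the background limit what can be said of all but 1 of the 12 probes.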
